A study of Homo sapiens with 8 samples.

Results

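TCP (tranylcypromine), an inhibitor of the histone demethylase LSD1, was compared with vehicle across all expressed genes of MV4-11 cells, a human AML line that carries FLT3-ITD and MLL-AF4. The comparison uses 4 of the 8 RNA-seq libraries of the series: 2 of control cells given DMSO and 2 of cells given 5 μM TCP. The other 4 libraries come from the same line under 0.5 μM palbociclib, a CDK4/6 inhibitor, and under the combination of palbociclib and TCP at the same doses. They entered the same model, and they are used to see whether a change under TCP came back when TCP was added to palbociclib. All 8 libraries come from this single line, and the labels name no separate cultures for the replicates, so every p-value measures the spread between these libraries only. The labels give 4 days of treatment. The methods of the study describe 1 day of the CDK6 inhibitor followed by 3 days with both molecules, so whether TCP alone lasted 3 or 4 days is not settled here. The study also describes coculture of the line on HS-5 stromal cells, which the labels do not mention.

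LSD1, encoded by KDM1A, removes methyl groups from lysine 4 of histone H3 and works in the CoREST complex with the deacetylases HDAC1 and HDAC2. In blood cells the repressors GFI1 and GFI1B bring this complex to their target genes, many of which are genes of mature myeloid cells that are also bound by SPI1 (PU.1) and C/EBP factors. TCP forms a covalent adduct with the FAD cofactor of LSD1, and it has long been known as an inhibitor of the monoamine oxidases MAOA and MAOB. MV4-11 cells are blasts of the monocytic lineage, in which monocyte maturation is held back.

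Values are TPM, that is, counts per gene length scaled to the same sum in every library. A gene was tested when 2 or more of the 8 libraries reached 1 TPM, which held for 14151 of the 26364 in the table. Differences are given as log2(TPM + 1), a scale on which genes with low values seem to change by less than they do, and SE is the standard error of that difference. DEG had a difference of at least 1 in either direction and a Benjamini-Hochberg adjusted p below 0.01 in limma. The words rose and fell are kept for genes with an adjusted p below 0.05, a wider limit at any fold change that was chosen after seeing the data. A gene is called pair-consistent where TCP replicate 1 differed from control replicate 1, and TCP replicate 2 from control replicate 2, by at least 1 (or 0.5, where stated) in the same direction, with both TCP libraries beyond both control libraries. What the replicate numbers share is not given in the sources used here.

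The libraries matched the labelled line in the markers examined. FLT3 stood between 182 and 263 TPM in the 4 control and TCP libraries, CD33 between 103 and 109.7 TPM, HOXA9 between 147 and 166 TPM and MEIS1 between 42.4 and 46.5 TPM. SPI1 was expressed at 208 to 264 TPM. Between 13320 and 13562 genes reached 1 TPM in these 4 libraries, and the 10 most abundant genes took 9.12% to 9.67% of the TPM. The sequencing depth cannot be read from TPM and is unknown. Of 30 stromal markers in the table, 16 were tested, none passed an adjusted p of 0.05, and 3 were at 0 in all 4 libraries. Their summed level was 41.8 and 82.7 TPM in control replicates 1 and 2 and 52.6 and 74.3 TPM in TCP replicates 1 and 2, higher in replicate 2 of both groups. COL1A1 ranged from 0.151 to 1.79 TPM. The part of stromal RNA in the results was not tested.

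No difference was detected in the molecular targets of TCP. KDM1A was at 79.6 and 85.0 TPM in control replicates 1 and 2 and at 83.0 and 79.6 TPM in TCP replicates 1 and 2, and GFI1 at 199.8 and 200.4 TPM in control and 199 and 194 TPM in TCP libraries. The groups overlapped for KDM1A, with a difference of -0.02 (SE 0.08, adjusted p = 0.973 in limma with Benjamini-Hochberg adjustment). MAOB was listed at 0 in all 8 libraries and MAOA did not exceed 0.140 TPM, so neither passed the filter. GFI1B, the paralogue of GFI1, was also under the filter, with 0.691 and 0.272 TPM in control replicates 1 and 2 and 4.98 and 0.761 TPM in TCP replicates 1 and 2, so the higher level was that of TCP replicate 1. Of all genes tested 38.4% had a higher mean under TCP. Of 18 tested members of the LSD1-CoREST complex and its partners, 3 had a higher and 15 a lower mean. Their median difference was -0.09, against -0.04 over all genes tested, the range was -0.37 to 0.12, and no member passed an adjusted p of 0.05. The split of this list depended on scaling, with 7 members higher and 11 lower after median-ratio scaling.

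TCP gave 8 DEG among 14151 genes, 0.0565%, and all 8 were higher than in control cells. They were VCAN, FCRLA, RBM47, GPR65, SGSH, FLJ46906, AMICA1 and IFI30. In each of them both TCP libraries stood above both control libraries, and both same-numbered pairs differed by at least 1. Of the 8, 6 had the same adjusted p of 0.00956 in limma with Benjamini-Hochberg adjustment, and the number of DEG was 0 when any library other than control replicate 2 was left out of the model, and 1 without control replicate 2. At an adjusted p below 0.05, all 8 kept the call without each TCP, palbociclib or combination library in turn. Without control replicate 1, or without control replicate 2, 3 of the 8 did. With only the TCP and control libraries in the model there was no DEG, and 853 genes had an unadjusted p below 0.05.

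**Figure D1:**
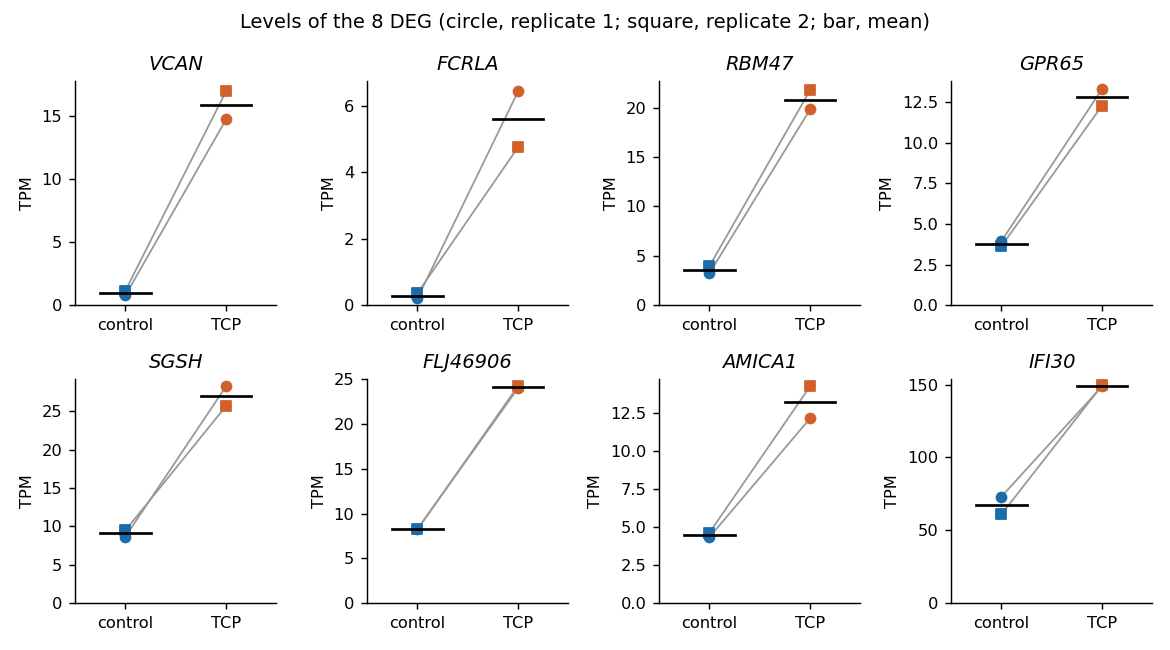
TPM of the 8 DEG in the control and TCP libraries, with grey lines joining libraries of the same replicate number, a bar at each group mean, and a TPM axis that starts at 0 in every panel. In all 8 panels both TCP libraries lie above both control libraries, from VCAN (0.783 and 1.16 against 14.7 and 17.0 TPM) to IFI30 (73.1 and 60.9 against 149 and 149.6 TPM).

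VCAN, at chr5:82767437-82878122 of GRCh37 on the plus strand, encodes versican, a chondroitin sulfate proteoglycan of the extracellular matrix that monocytes and macrophages also make. VCAN stood at 0.783 and 1.16 TPM in control replicates 1 and 2 and at 14.7 and 17.0 TPM in TCP replicates 1 and 2, far apart and without overlap. The difference of 3.10 (SE 0.13, adjusted p = 0.00101 in limma with Benjamini-Hochberg adjustment) was the largest among genes tested that passed the threshold. Of the 18 tested genes of proteoglycans and hyaluronan, VCAN was the only one with an adjusted p below 0.05, and the median of that list was -0.04, the same as that of all genes tested. HAPLN3, a link protein that binds hyaluronan and proteoglycans, was pair-consistent at 0.5 at low levels, with 0.287 and 0.451 TPM in control and 1.15 and 1.07 TPM in TCP libraries (adjusted p = 0.346 in the same limma test). HAPLN3 passed the filter only through the TCP libraries.

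RBM47, at chr4:40425284-40632892 on the minus strand, encodes an RNA-binding protein that acts in splicing and mRNA stability and assists APOBEC1 in RNA editing. RBM47 stood at 3.24 and 3.96 TPM in control libraries and at 19.8 and 21.8 TPM in TCP libraries. The TCP libraries lay close to each other and clear of control, with a difference of 2.25 (SE 0.12, adjusted p = 0.0017 in limma). FCRLA, at chr1:161676762-161684142 on the plus strand, encodes an intracellular Fc receptor-like protein best known in B cells. It was close to absent in control libraries, at 0.206 and 0.365 TPM, and at 6.44 and 4.76 TPM in TCP libraries, a difference of 2.35 (SE 0.20, adjusted p = 0.00956 in limma). FCRLA passed the filter only through libraries with TCP, so its direction was favoured in advance. Other B lineage genes did not rise with FCRLA: of 6 tested B lineage markers FCRLA alone passed an adjusted p of 0.05, MS4A1 (CD20) was at 0 in every library, and 9 of the 22 markers were at 0 in all control and TCP libraries. The summed B lineage level was 13.6 and 10.8 TPM in control and 17.7 and 15.4 TPM in TCP libraries.

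GPR65, at chr14:88471479-88481155 on the plus strand, encodes a proton-sensing receptor of leukocytes. Its level was 3.95 and 3.64 TPM in control and 13.3 and 12.3 TPM in TCP libraries, a difference of 1.53 (SE 0.12). AMICA1, at chr11:118064440-118095807 on the minus strand, is the older symbol of JAML, an adhesion molecule that leukocytes use in crossing epithelium. It stood at 4.33 and 4.62 TPM in control and 12.2 and 14.3 TPM in TCP libraries, a difference of 1.37 (SE 0.11). Levels in the TCP libraries were clear of control for both genes. Of 23 tested proton-sensing and chemoattractant receptors, GPR65 alone passed an adjusted p of 0.05, where 0.29% of genes tested rose. Pair-consistent at 0.5 were 4 of the 23 as higher, against 1.75% of genes tested, and 2 as lower, against 0.94%. Among the 4 were CCR7 and CCR2, the chemokine receptors of lymph node homing and of monocyte recruitment, with differences of 1.46 and 0.88. P2RY2, a nucleotide receptor, and S1PR3, a receptor for sphingosine 1-phosphate, were pair-consistent and lower, at -0.73 and -0.75. With the replicate block, described further on, CCR7 and P2RY2 also passed (adjusted p = 0.0223 and 0.0432 in limma). Over all genes tested 0.848% passed as higher with the block and 0.544% as lower.

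SGSH and IFI30 encode lysosomal enzymes. SGSH, at chr17:78180515-78194722 on the minus strand, is the sulfamidase that removes sulfate from heparan sulfate. It was at 8.65 and 9.47 TPM in control and 28.3 and 25.7 TPM in TCP libraries, a difference of 1.48 (SE 0.11). SGSH was the only one of 17 tested lysosomal enzymes of glycosaminoglycan breakdown with an adjusted p below 0.05, and the median of that list was 0.02. The gene overlaps CARD14 and SLC26A11 on the opposite strand, and whether the counting used strand is not given in the sources used here. IFI30 (GILT), at chr19:18283972-18288927 on the plus strand, reduces disulfide bonds of antigens before they are loaded on MHC class II. It was the most abundant of the 8, at 73.1 and 60.9 TPM in control and 149 and 149.6 TPM in TCP libraries, a difference of 1.15 (SE 0.09). IFI30 overlaps another annotated gene, ENSG00000268173, on the same strand. FLJ46906 carries no coordinates in the annotation used here. It stood at 8.26 and 8.22 TPM in control and 24.0 and 24.3 TPM in TCP libraries, a difference of 1.44 (SE 0.12).

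Promoter sequences were read for the called genes, since GFI1 brings LSD1 to its target genes in myeloid cells, and SPI1 and C/EBP factors also bind many of these genes. RefSeq promoters of GRCh38.p14, from 250 bases before to 50 bases from the start of the gene, were searched on both strands for AAATCA (GFI1), GAGGAAG (SPI1) and TTNNGCAA (C/EBP), none of which overlaps another in the windows shown. Of all 27305 promoters in the table, 13.3%, 13.4% and 10.6% held these motifs. Promoters were matched for 6 of the 8 DEG and for 10361 of the 14151 genes tested, which is under 80%, so a comparison of their shares is void and the matches are a description. The promoters of the 4 DEG that held the SPI1 motif are shown for that reason, with the motifs in capitals and reading 5′ to 3′ along the gene. GAGGAAG begins 43 bases before the start of FCRLA (chr1:161706979-161707278, plus strand), 49 before GPR65 (chr14:88004885-88005184, plus strand), 51 before JAML (chr11:118212897-118213196, minus strand) and 126 before IFI30 (chr19:18173563-18173862, plus strand). In FCRLA and GPR65 it reads on the other strand, as CTTCCTC. FCRLA also held AAATCA, 5 bases before the start.
FCRLA: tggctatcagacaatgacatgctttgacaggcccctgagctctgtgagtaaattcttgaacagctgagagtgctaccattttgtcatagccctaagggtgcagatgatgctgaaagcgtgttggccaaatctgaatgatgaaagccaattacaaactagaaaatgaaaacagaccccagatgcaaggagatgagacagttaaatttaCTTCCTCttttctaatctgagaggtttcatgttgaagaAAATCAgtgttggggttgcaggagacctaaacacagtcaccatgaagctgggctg
GPR65: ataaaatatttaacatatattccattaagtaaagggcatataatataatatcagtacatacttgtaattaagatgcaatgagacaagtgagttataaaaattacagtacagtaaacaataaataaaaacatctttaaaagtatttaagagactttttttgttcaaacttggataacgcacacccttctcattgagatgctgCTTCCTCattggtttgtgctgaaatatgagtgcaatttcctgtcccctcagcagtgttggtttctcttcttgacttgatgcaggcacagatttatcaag
JAML: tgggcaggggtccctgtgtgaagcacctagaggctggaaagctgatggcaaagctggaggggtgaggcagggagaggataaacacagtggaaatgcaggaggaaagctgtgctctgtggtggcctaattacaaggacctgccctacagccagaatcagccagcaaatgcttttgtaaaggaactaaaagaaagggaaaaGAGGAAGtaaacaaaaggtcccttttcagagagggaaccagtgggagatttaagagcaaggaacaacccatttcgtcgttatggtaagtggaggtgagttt
IFI30: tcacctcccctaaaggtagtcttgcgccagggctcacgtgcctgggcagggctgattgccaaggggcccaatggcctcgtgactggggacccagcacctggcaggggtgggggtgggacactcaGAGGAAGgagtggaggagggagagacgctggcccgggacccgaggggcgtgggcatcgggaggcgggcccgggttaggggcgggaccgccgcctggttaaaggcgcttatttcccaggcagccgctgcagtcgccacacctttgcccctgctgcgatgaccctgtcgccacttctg

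The promoters of VCAN and RBM47 held none of the 3 motifs in this window. MS4A4A, a higher gene described further on, and PRTN3, a granule protease that fell, are shown because each held a C/EBP match. In MS4A4A (chr11:60280416-60280715, plus strand) the C/EBP motif begins 223 bases and the GFI1 motif 177 bases before the start. In PRTN3 (chr19:840749-841048, plus strand) the SPI1 motif begins 88 and the C/EBP motif 62 bases before the start.
MS4A4A: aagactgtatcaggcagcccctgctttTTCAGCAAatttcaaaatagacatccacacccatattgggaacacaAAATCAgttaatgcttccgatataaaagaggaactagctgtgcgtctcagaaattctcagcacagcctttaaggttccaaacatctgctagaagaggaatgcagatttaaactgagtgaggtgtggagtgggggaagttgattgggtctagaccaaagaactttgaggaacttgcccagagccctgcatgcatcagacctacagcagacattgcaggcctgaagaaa
PRTN3: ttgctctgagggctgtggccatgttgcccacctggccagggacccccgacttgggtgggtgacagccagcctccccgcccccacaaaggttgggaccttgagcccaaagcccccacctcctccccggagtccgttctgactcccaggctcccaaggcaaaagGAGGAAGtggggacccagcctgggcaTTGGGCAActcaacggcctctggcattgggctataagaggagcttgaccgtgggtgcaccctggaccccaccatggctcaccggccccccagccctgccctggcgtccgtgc

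Because the replicate numbers tracked each other in all pairs of groups, the replicate was also fitted as a block. This gave 20 DEG, 0.141% of genes tested, of which 15 were higher and 5 lower, and all 8 DEG were among them. The added higher genes were LY96, MS4A4A, CCDC109B, PLEKHO1, LILRB1, VIM and ANKRD22, and the lower ones NFE2, PRTN3, B3GNT5, MIR1206 and MIR4469. LY96 (MD-2), the partner of TLR4 in binding lipopolysaccharide, was at 12.1 and 7.63 TPM in control and 61.8 and 27.1 TPM in TCP replicates 1 and 2. Replicate 1 was the higher one in both groups, and the pairs differed by 2.27 and 1.70. Its adjusted p in limma was 0.258 without and 0.00686 with the block. MS4A4A, a membrane protein of monocytes and macrophages, rose from 8.13 and 6.35 to 27.2 and 29.0 TPM, by 1.83 (SE 0.19, adjusted p = 0.0158 in limma, 0.00686 with the block). CCDC109B, the older symbol of MCUB, a regulatory subunit of the mitochondrial calcium uniporter, rose from 7.06 and 11.2 to 30.2 and 34.8 TPM. VIM, the intermediate filament vimentin, rose from 292 and 339.9 to 703 and 699 TPM, a difference of 1.15 (SE 0.12). PLEKHO1, which binds casein kinase 2, rose from 17.9 and 18.9 to 41.8 and 54.5 TPM, and ANKRD22 from 2.08 and 2.09 to 5.46 and 5.06 TPM. LILRB1, an inhibitory receptor for MHC class I, was at 8.78 and 10.4 TPM in control and 21.5 and 28.3 TPM in TCP libraries, with an adjusted p of 0.102 in limma without the block. NFE2, a transcription factor of the megakaryocytic and erythroid lineages that leukemic cells also express, was at 38.1 and 26.4 TPM in control and 17.6 and 12.1 TPM in TCP libraries, and B3GNT5, a glycosyltransferase of lacto-series glycolipids, fell from 15.7 and 13.7 to 5.55 and 4.55 TPM.

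At an adjusted p below 0.05 and any fold change, 61 genes passed in limma with Benjamini-Hochberg adjustment: 41 rose, 0.29% of genes tested, and 20 fell, 0.141%. In all 61 the control and TCP libraries did not overlap, as was the case for 34.7% of all genes tested. With 2 libraries against 2, choosing genes by a small p favours this beforehand, so it is no support. MIR1539 and MIR424, which rose, passed the filter only through the TCP libraries, and MIR98, which fell, only through the control libraries. The direction of these entries was favoured in advance. Besides the genes above, the 61 included genes outside the naming rule that are given here after their values were seen. The leukocyte immunoglobulin-like receptors LILRA5, LILRA6 and LILRB3 rose by 1.57, 1.24 and 1.03, from at most 2.37 TPM in control libraries. LILRA6 and LILRB3 overlap on the same strand in the annotation, and receptors of this family share near-identical sequence, so their reads may have been exchanged. Among genes with higher levels, those that rose included TPM4, a tropomyosin, from 273 and 276 to 458 and 490.3 TPM, ANXA2, an annexin, from 43.4 and 46.8 to 79.0 and 94.5 TPM, and CAPG, an actin-capping protein, from 202 and 181 to 305 and 280.3 TPM. PRDX1, a peroxiredoxin, rose from 499.7 and 555 to 993 and 1085 TPM. STS, the steroid sulfatase, rose by 1.28 and ENPP2 (autotaxin), which makes lysophosphatidic acid, by 1.03.

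Besides the 4 granule genes given further on, the genes that fell included the following. GLUL, glutamine synthetase, fell from 227 and 232 to 135 and 137 TPM. RAB27A, a small GTPase of granule secretion, fell from 118 and 112 to 66.6 and 64.8 TPM and B4GALT5, a galactosyltransferase of lactosylceramide synthesis, from 105 and 111 to 59.8 and 59.0 TPM. TLR4, the lipopolysaccharide receptor, fell from 15.4 and 15.8 to 7.48 and 8.15 TPM, a difference of -0.91 (SE 0.08, adjusted p = 0.00956 in limma), and the values of its partner LY96 are given above. MNDA, a nuclear antigen of myeloid cells, fell by 0.68 on the log2 scale and CFD, complement factor D, by 0.66.

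Pair-consistent genes at a difference of at least 1 numbered 63 higher, 0.445% of genes tested, and 24 lower, 0.17%. At 0.5 they numbered 248 higher, 1.75%, and 133 lower, 0.94%. Entries of short RNAs (microRNA hairpins, snoRNAs and snRNAs) made up 6.49% of genes tested, 20 of the 63 higher genes and 16 of the 24 lower genes. In libraries made from mRNA such an entry counts reads over a short hairpin or its host transcript, not the mature small RNA. Across all genes tested, which are not independent replicates, the differences of pair 1 and pair 2 had a Pearson r of 0.351.

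**Figure D2:**
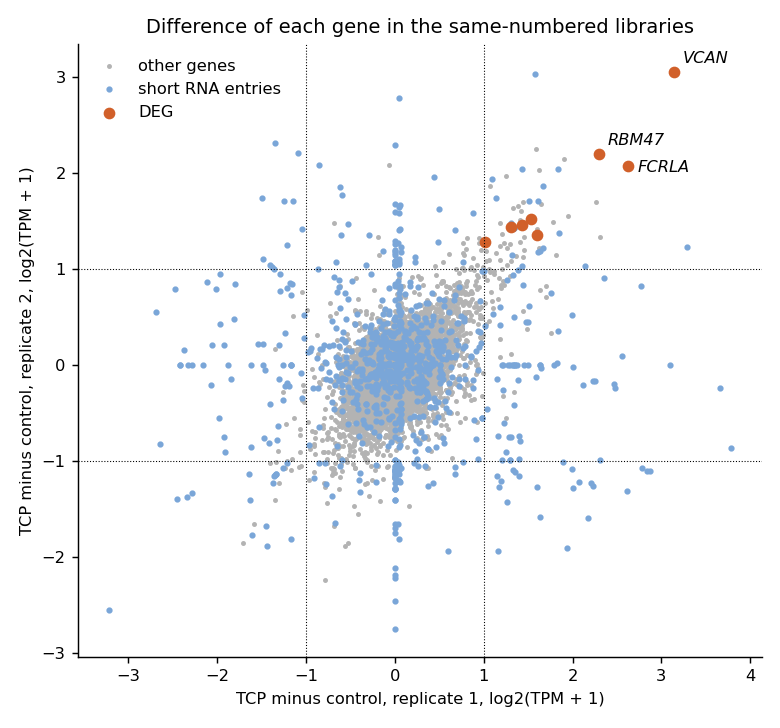
Difference between TCP and control on the log2(TPM + 1) scale for each of the 14151 genes tested, in replicate 1 (horizontal axis) and replicate 2 (vertical axis), with dotted lines at -1 and 1. The 8 DEG (orange) lie beyond 1 on both axes, VCAN at 3.14 and 3.05, while the short RNA entries (blue) scatter to all sides and along the axes.

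The 12 largest pair-consistent increases with the higher group's mean at 5 TPM or more were those of VCAN, FCRLA, MIR378I, MIR1228, RBM47, MPEG1, LY96, S100A8, MS4A4A, FCGR2B, CCDC109B and MIR6734. MPEG1, a pore-forming protein of macrophage lysosomes, stood at 8.73 and 16.7 TPM in control and 35.4 and 77.2 TPM in TCP replicates 1 and 2. FCGR2B, an inhibitory Fc receptor whose reads can be shared with FCGR2A and FCGR2C, stood at 4.00 and 2.92 TPM in control and 23.7 and 8.89 TPM in TCP libraries. For both genes the TCP libraries were higher but differed by more than a factor of 2 from each other, and the adjusted p was 0.119 and 0.166 in limma. MIR378I lies within TNFRSF13C and MIR1228 within LRP1, on the same strands. MIR378I was at 1.6 and 0 TPM in control and 6.73 and 7.20 TPM in TCP libraries, MIR1228 at 0 and 2.62 TPM in control and 8.76 and 7.49 TPM in TCP libraries, and MIR6734 at 1.79 and 2.82 TPM in control and 7.53 and 11.5 TPM in TCP libraries, none with an adjusted p below 0.05.

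The 12 largest pair-consistent decreases by the same rule were those of MIR1206, CTSG, MS4A3, MIR4469, SNORA19, MIR3153, B3GNT5, KCNE5, RNASE3, RNASE2, SLC10A2 and NFE2. MIR1206 fell from 8.24 and 4.87 TPM to 0 in both TCP libraries. CTSG, cathepsin G of azurophil granules, was at 76.1 and 49.9 TPM in control and 22.6 and 13.1 TPM in TCP replicates 1 and 2, a difference of -1.78 (SE 0.30, adjusted p = 0.0864 in limma). MS4A3, a membrane protein of granulocyte and monocyte progenitors, was at 44.7 and 74.1 TPM in control and 14.3 and 22.8 TPM in TCP libraries, a difference of -1.62 (adjusted p = 0.0782). KCNE5, a potassium channel subunit, was at 79.0 and 120.4 TPM in control and 29.3 and 59.1 TPM in TCP libraries. KCNE5 overlaps ACSL4 on the same strand in the annotation, and how shared reads were counted is not known. SLC10A2, a bile acid transporter, was at 8.37 and 10.3 TPM in control and 3.18 and 4.28 TPM in TCP libraries. SNORA19 was at 5.79 and 6.84 TPM in control and 2.03 and 1.24 TPM in TCP libraries, and MIR3153 at 11.9 and 11.7 TPM in control and 3.12 and 4.76 TPM in TCP libraries. Both TCP libraries were below both control libraries in each of these genes, as the rule for pair-consistent genes requires.

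Monocyte and macrophage markers, the longest list, had the most pair-consistent members by number, though not by share. Of 37 tested, 30 had a higher mean under TCP and 7 a lower mean, where 38.4% of all genes tested had a higher mean. The median difference of the list was 0.54 against -0.04 over all genes. VCAN, S100A9 and MS4A7 rose and TLR4 fell, where 0.29% of genes tested rose and 0.141% fell. Pair-consistent at 0.5 and higher were 16 members, against 1.75% of genes tested. With the replicate block 12 members passed an adjusted p of 0.05 as higher, where 0.848% of genes tested did. TLR4 passed as lower, where 0.544% did. The median was 0.59 in pair 1 and 0.49 in pair 2. S100A9, which forms the calcium-binding protein calprotectin with S100A8, rose from 13.7 and 18.2 to 45.0 and 60.5 TPM, by 1.66 (SE 0.20, adjusted p = 0.0264 in limma), and S100A8 was at 3.49 and 5.86 TPM in control and 12.5 and 31.5 TPM in TCP libraries (adjusted p = 0.153). MS4A7 rose from 23.4 and 18.4 to 46.2 and 47.3 TPM. CD14 and ITGAM, whose proteins the study followed as myeloid markers, were at low levels. CD14, the lipopolysaccharide coreceptor, was at 0.943 and 2.07 TPM in control and 4.32 and 6.70 TPM in TCP libraries, and ITGAM (CD11b) at 2.23 and 1.23 TPM in control and 6.50 and 3.10 TPM in TCP libraries. CD86, a costimulatory ligand, was at 3.50 and 2.62 TPM in control and 14.8 and 7.0 TPM in TCP libraries, and FCN1, ficolin 1, at 0 and 0.224 TPM in control and 1.10 and 3.47 TPM in TCP libraries. LYZ, lysozyme, was abundant, but its groups overlapped, at 278 and 770.5 TPM in control and 718 and 1696 TPM in TCP libraries. CSF1R, the receptor of macrophage colony-stimulating factor, was at 14.6 and 14.7 TPM in control and 21.2 and 20.9 TPM in TCP libraries and CD68 at 121 and 104 TPM in control and 124 and 109 TPM in TCP libraries. In bulk RNA, more cells with a gene and more RNA of it per cell cannot be told apart.

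**Figure D3:**
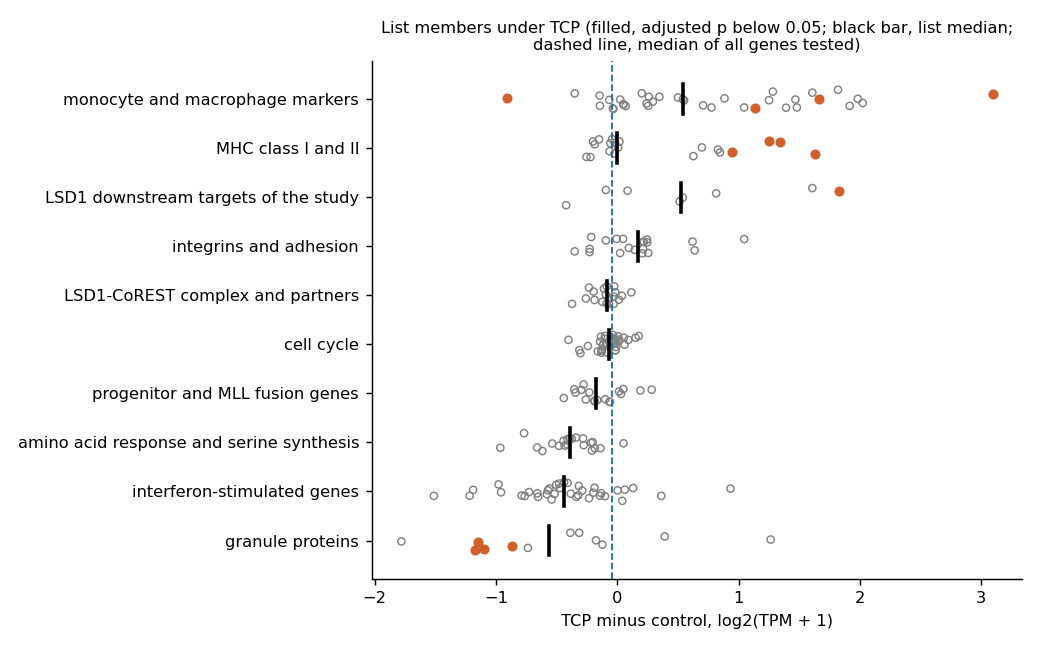
Difference between TCP and control on the log2(TPM + 1) scale for the tested members of 10 gene lists, 1 point a gene, filled where the adjusted p was below 0.05 in limma, with the list median as a black bar and the median of all genes tested (-0.04) as a dashed line. Monocyte markers reach 3.10, class II genes form the right-hand group of the MHC list, and the granule proteins have the lowest median, -0.56.

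MHC genes were set as a single list, of which 20 were tested, with 10 higher, 10 lower and a median of -0.006. They are given here by class, a split that was not part of the list as set. The 8 tested genes on the class II side, HLA-DQA1, HLA-DRA, HLA-DRB1, CD74, HLA-DQB1, HLA-DPA1, CIITA and HLA-DMA, were all higher and all pair-consistent at 0.5, with a median of 0.89 and a range of 0.63 to 1.63. Over all genes tested 38.4% had a higher mean and 1.75% were pair-consistent at 0.5 and higher. HLA-DQA1 and HLA-DPA1 passed the filter only through libraries with TCP, so their direction was favoured in advance and is no support. HLA-DQA1 rose from 0.237 and 0.186 to 3.24 and 2.33 TPM, HLA-DRA from 5.37 and 6.34 to 15.9 and 16.8 TPM and HLA-DRB1 from 3.72 and 4.43 to 10.1 and 12.1 TPM. CD74, the invariant chain that guides class II molecules to the endosome, rose from 348 and 314 to 648 and 624 TPM, by 0.94 (SE 0.08, adjusted p = 0.00956 in limma). CIITA, the master regulator of class II transcription, was at 3.88 and 4.54 TPM in control and 7.32 and 7.54 TPM in TCP libraries, with an adjusted p of 0.338. HLA-DRB1 and HLA-DRB5 share near-identical sequence, and HLA-DRB5 rose as well, by 1.48. The 12 tested genes on the class I side, among them HLA-B, HLA-C, B2M and TAP1, had a median of -0.06 and a range of -0.25 to 0.02, and none passed. Under quantile normalization and median-ratio scaling all 8 class II genes were still higher, with medians of 0.93, while the class I genes divided into 5 higher and 7 lower and into 4 higher and 8 lower.

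Granule protein genes had the lowest list median. Of 12 tested, 10 had a lower mean under TCP, with a median of -0.56. Of all 14151 genes tested, 8692 had a lower mean. ELANE, PRTN3, RNASE2 and RNASE3 fell, where 0.141% of genes tested did. Of the 12, 6 were pair-consistent at 0.5 and lower, against 0.94% of genes tested. PRTN3, proteinase 3, fell from 971 and 831 to 419 and 417 TPM, by 1.10 on the log2 scale (SE 0.15, adjusted p = 0.04 in limma), and ELANE, neutrophil elastase, from 798 and 709 to 425 and 401 TPM (adjusted p = 0.0142). RNASE2 and RNASE3, eosinophil granule ribonucleases that share much of their sequence, fell from 271 and 325 to 115 and 155 TPM and from 49.3 and 54.7 to 18.9 and 26.7 TPM. MPO, myeloperoxidase, was low in all libraries, at 3.37 and 3.42 TPM in control and 1.67 and 1.6 TPM in TCP libraries. MMP9 went the other way without passing, at 1.09 and 0.656 TPM in control and 5.81 and 1.94 TPM in TCP libraries. After median-ratio scaling 2 of the 12 passed an adjusted p of 0.05, and 3 did after quantile normalization.

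The 8 LSD1 downstream targets that the study followed were chosen by it partly on these libraries, so their direction is not independent evidence. Of the 8, 6 had a higher mean under TCP, where 38.4% of genes tested did. The median of the 8 was 0.53, and MS4A4A passed. S100A12 was at 0 and 0.411 TPM in control and 1.37 and 4.53 TPM in TCP replicates 1 and 2, and KCTD12, an auxiliary subunit of GABA-B receptors, at 3.61 and 3.35 TPM in control and 7.04 and 6.71 TPM in TCP libraries, with an adjusted p of 0.0722 in limma and 0.0249 with the block. CYBB, the catalytic subunit of the phagocyte oxidase, and CXCR4 showed replicate differences beyond the difference of groups, with CYBB at 3.18 and 9.02 TPM in control and 5.27 and 13.1 TPM in TCP libraries and CXCR4 at 137 and 194 TPM in control and 141 and 211 TPM in TCP libraries. IL10RA was at 15.9 and 13.5 TPM in control and 20.8 and 21.8 TPM in TCP libraries, PECAM1 at 20.8 and 21.8 TPM in control and 18.0 and 22.0 TPM in TCP libraries and CD82 at 53.6 and 76.4 TPM in control and 38.1 and 59.2 TPM in TCP libraries. SPI1 stayed within its replicate spread, with a difference of 0.02 (SE 0.14). With the replicate block 0.544% of genes tested passed as lower. Of 29 tested myeloid transcription factors none passed without that block, and 4 passed as lower with it. These were NFE2, EGR1, an immediate early factor, and CEBPB and CEBPD, which encode C/EBP beta and delta, factors of myeloid maturation. NFE2 and EGR1 were pair-consistent, EGR1 at 31.7 and 57.5 TPM in control and 18.0 and 23.3 TPM in TCP libraries (adjusted p = 0.538 in limma, 0.0454 with the block). CEBPB was at 85.4 and 90.1 TPM in control and 61.5 and 62.6 TPM in TCP libraries, a difference of -0.49 (SE 0.07, adjusted p = 0.0502, 0.0218 with the block), and CEBPD at 114 and 135 TPM in control and 82.8 and 101 TPM in TCP libraries (adjusted p = 0.329, 0.0417 with the block).

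The lists that follow held no gene past an adjusted p of 0.05 without the block. The 34 cell cycle genes had a median of -0.07 and a range of -0.40 to 0.18, with 8 higher and 26 lower, and 16 higher and 18 lower after median-ratio scaling. Before that scaling 38.4% of all genes tested were higher. MKI67 was at 68.9 and 108 TPM in control and 65.1 and 81.1 TPM in TCP replicates 1 and 2. The 18 tested progenitor and MLL fusion genes had a median of -0.18, with SOX4 at 25.1 and 25.5 TPM in control and 33.0 and 29.1 TPM in TCP libraries and CDK6 at 131 and 162 TPM in control and 117 and 122 TPM in TCP libraries. Of 14 tested BCL2 family genes BCL2 was pair-consistent at 0.5 and lower, as were 0.94% of genes tested. BCL2 was at 45.5 and 45.9 TPM in control and 29.5 and 22.0 TPM in TCP libraries (adjusted p = 0.205 in limma, 0.0386 with the block). With the block 0.544% of genes tested passed as lower. Of 20 tested integrin and adhesion genes, ITGAM, ICAM1 and ITGB7 were pair-consistent at 0.5 and higher, the last at 11.8 and 12.4 TPM in control and 20.0 and 18.3 TPM in TCP libraries. Of all genes tested 1.75% were pair-consistent at 0.5 and higher. Of the lists of other blood cells, 4 T and NK cell, 5 erythroid and megakaryocyte and 2 mast cell, basophil and eosinophil markers were tested, with medians of 0.12, 0.01 and 0.02. SMOX, spermine oxidase, was the amine oxidase with the highest level, at 17.4 and 15.5 TPM in control and 23.3 and 19.4 TPM in TCP libraries.

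In 3 lists replicate 2 lay below replicate 1 in nearly every gene of both groups. Of 37 interferon-stimulated genes, 31 had a lower mean under TCP, with a median of -0.44. Of all 14151 genes tested, 8692 had a lower mean. In control cells 36 of the 37 were lower in replicate 2 than in replicate 1, and in TCP cells all 37 were. How many of all genes tested were lower in replicate 2 was not counted. The median was -0.18 in pair 1 and -0.72 in pair 2, and the groups were apart for 2 of the 37 genes, against 34.7% of all genes. IFIT2, an interferon-induced antiviral protein, was at 168 and 65.4 TPM in control and 97.1 and 13.1 TPM in TCP replicates 1 and 2. Of 21 genes of the amino acid response and serine synthesis, 20 had a lower mean under TCP, with a median of -0.39, and all 21 were lower in replicate 2 in both groups. TRIB3, a target of ATF4, was at 96.1 and 57.7 TPM in control and 66.2 and 28.3 TPM in TCP libraries. All 18 cholesterol synthesis genes were lower in replicate 2 of both groups as well, with a median of -0.16 between groups.

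The palbociclib and combination libraries are not part of the difference between TCP and control. They did enter the filter and the variances by which the 8 DEG were called, so a change that came back is no independent check. The combination differed from palbociclib alone in 71 DEG, 0.502% of genes tested, of which 65 were higher and 6 lower. Over all genes tested 34.5% had a higher mean in the combination. All 8 DEG of TCP were higher in the combination than in palbociclib in both same-numbered pairs, 5 were DEG there, and 7 had an adjusted p below 0.05 in limma. VCAN was at 2.86 and 2.79 TPM under palbociclib and 88.4 and 81.8 TPM under the combination, a difference of 4.49 (SE 0.13, adjusted p = 7.66e-05 in limma). IFI30 was at 209.6 and 208 TPM under palbociclib and 817 and 796 TPM under the combination, a difference of 1.95. FLJ46906 was the one that missed, at 4.32 and 4.78 TPM under palbociclib and 6.52 and 7.99 TPM under the combination (adjusted p = 0.0555). The summed stromal level was 63.3 and 360.3 TPM in palbociclib and 93.5 and 124.7 TPM in combination libraries, highest in palbociclib replicate 2. Whether stromal RNA had a part in these differences was not tested. Of the 20 DEG with the replicate block, 19 had the same sign, the exception being MIR4469.

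**Figure D4:**
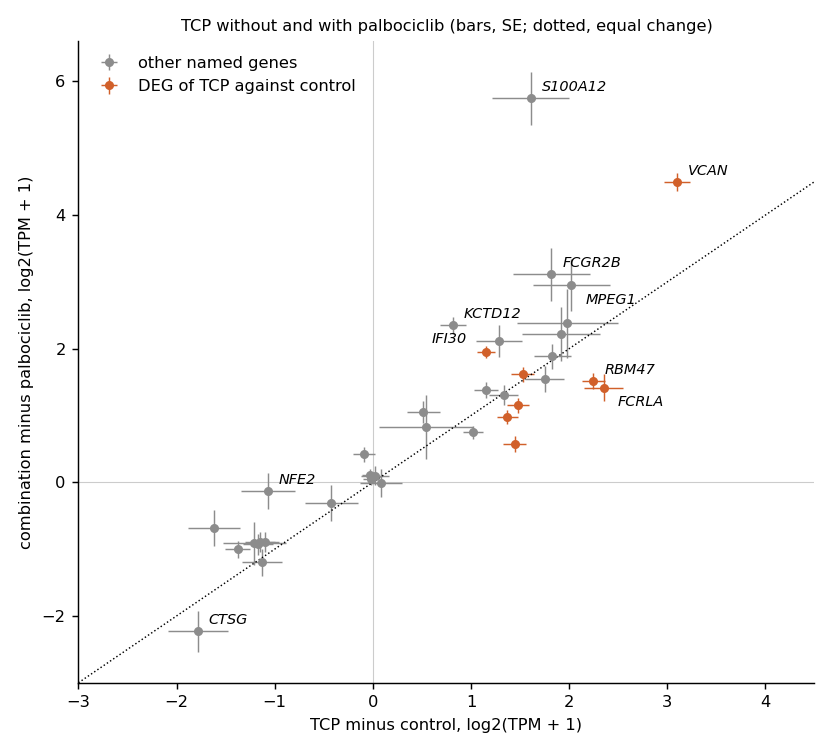
Difference on the log2(TPM + 1) scale made by TCP alone (TCP minus control, horizontal axis) and by TCP on top of palbociclib (combination minus palbociclib, vertical axis) for the named genes other than short RNA entries, with SE bars and a dotted line of equal change. The 8 DEG of TCP (orange) are above 0 on both axes, S100A12 lies far above the line (1.61 and 5.75), and NFE2 is near 0 with palbociclib (-0.13).

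How often a change came back is given apart for short RNA entries and other genes, with no test of the difference. Of the 63 pair-consistent higher genes, 43 were not short RNA entries and all 43 were higher with palbociclib too, 37 of them by at least 0.5 in both pairs, where 3.65% of genes tested were that much higher. FCRLA and HLA-DQA1, which are among the 43, passed the filter only through libraries with TCP, so their direction was favoured here as well. Of the 20 short RNA entries 7 were higher, where 34.5% of all genes tested were. The median difference of the 20 with palbociclib was 0. MIR1539 and MIR424, which are among them, were at 0 in every palbociclib and combination library, so they could not be higher there. Of the 24 pair-consistent lower genes, all 8 that were not short RNA entries were lower with palbociclib too. Of these 8, 7 were lower by at least 0.5 in both pairs, against 2.35% of genes tested. Of the 16 short RNA entries 7 were lower by any amount, and the median of the 16 was 0. MIR98, which is among the 16, was at 0 in every palbociclib and combination library. How many of all genes tested were lower in the combination was not counted.

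The test of the difference between the effects of TCP with and without palbociclib gave 0 DEG in limma, with 904 genes at an unadjusted p below 0.05, and 0 with the replicate block, with 1604. No named gene was therefore shown to respond differently. The differences of several genes described above were wide all the same. That of S100A12 was 4.14 (SE 0.55, adjusted p = 0.193 in limma), that of FCN1 3.05 (SE 0.47, adjusted p = 0.21), that of LILRA5 1.90 (SE 0.21, adjusted p = 0.172) and that of KCTD12 1.53 (SE 0.18, adjusted p = 0.173). S100A12 was at 8.39 and 6.56 TPM under palbociclib and 527 and 386 TPM under the combination, FCN1 at 11.5 and 14.8 TPM under palbociclib and 306 and 339.7 TPM under the combination, and KCTD12 at 6.22 and 5.67 TPM under palbociclib and 38.2 and 30.8 TPM under the combination. For NFE2 the difference was 0.94 (SE 0.39, adjusted p = 0.775), with 130.1 and 97.6 TPM under palbociclib and 125 and 85.2 TPM under the combination. For FCRLA and RBM47 the differences with palbociclib were 1.42 and 1.52, with adjusted p of 0.57 and 0.4 for the difference in limma. MNDA, which fell under TCP alone, rose when TCP was added to palbociclib, from 99.7 and 90.1 to 154 and 137 TPM, by 0.61 (SE 0.09, adjusted p = 0.0221 in limma), and the difference of these effects was 1.29 (SE 0.13, adjusted p = 0.172).

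The granule genes PRTN3 and ELANE and the monocyte genes S100A9 and CD14 all stood above control under palbociclib alone. PRTN3 was at 4401 and 3798 TPM under palbociclib and at 2534 and 1918 TPM under the combination, and the TCP libraries were the lower ones from either start, with a list median of -0.57 with palbociclib and -0.56 without. ELANE was at 1802 and 1907 TPM under palbociclib and 1115 and 1034 TPM under the combination. S100A9 was at 1820.0 and 1578 TPM under palbociclib and 7343 and 5756 TPM under the combination, and CD14 at 77.0 and 68.0 TPM under palbociclib and 374 and 359 TPM under the combination. The median of the monocyte markers was 1.24 with palbociclib. HLA-DRA was at 7.51 and 5.42 TPM under palbociclib and 26.5 and 23.3 TPM under the combination, and CD74 at 487 and 464 and then 877 and 796 TPM. The interferon-stimulated genes had the opposite sign, with 36 of 37 higher and a median of 0.41 with palbociclib, and none was a DEG in either comparison. Of all genes tested 34.5% were higher in the combination than in palbociclib.

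**Figure D5:**
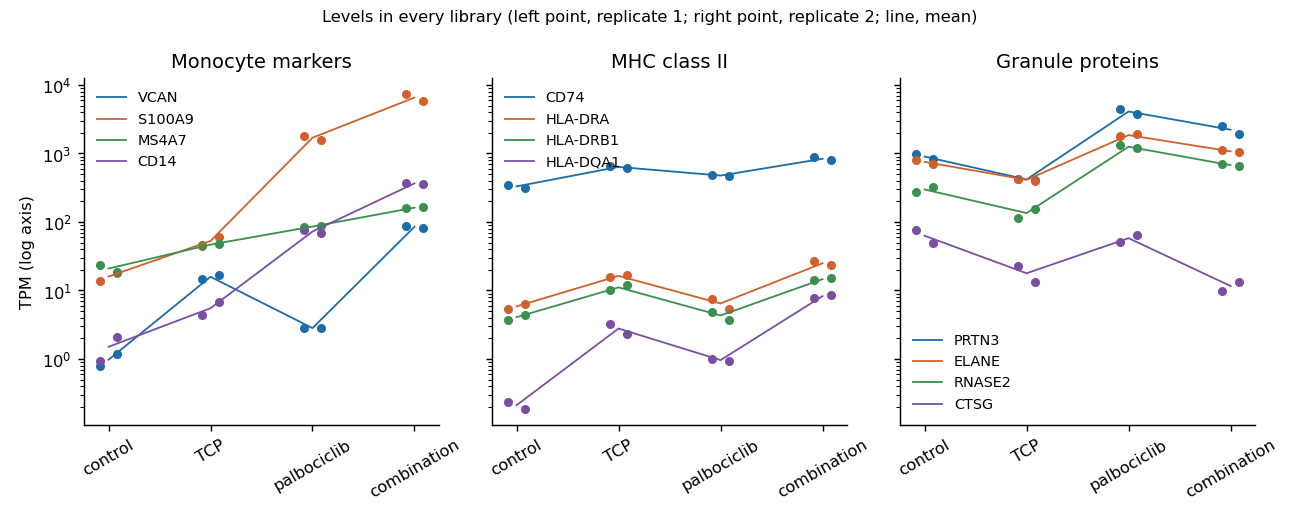
TPM on a log axis in every library of the 4 groups for monocyte markers (left), MHC class II genes (middle) and granule proteins (right), with replicate 1 as the left and replicate 2 as the right point and a line through the group means. Under TCP, VCAN and the class II genes are above control and the granule proteins below it, and the same steps are seen from palbociclib to the combination, as for CTSG (51.0 and 65.0 against 9.77 and 13.5 TPM).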

How the data were processed

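RNA of MV4-11 cells was measured in 8 libraries of 4 groups, 2 per group, assigned from the labels. The authors aligned reads to hg19 by subread-align, summarised them by gene through featureCounts and deposited the result as TPM. The gene annotation, gene lengths and strand setting are not given in the sources used here. Each library sums to the same total, so an abundant gene with a larger share lowers the others, and depth is unknown.

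From the deposited TPM, log2(TPM + 1) was fitted by limma 3.58.1 (R 4.3.3) as a model of 8 libraries with group means, moderated variances with a mean-variance trend and 4 residual degrees of freedom. The fit was tested on simulated data. The members, gene lists, motifs and tests were chosen with earlier results of these data known, and no set test was run. Libraries with the same number deviated together from their groups in all 6 pairs of groups (r of 0.169 to 0.491 across genes). The numbers were therefore taken to pair the libraries, which rests on these values alone, and the block was an alternative. Named genes are every DEG without or with the block, the 12 largest pair-consistent increases and decreases with the higher group's mean at 5 TPM or more, the drug targets and their partners, and list members that were DEG or pair-consistent, or otherwise up to 4 with the largest change. Alternatives were a pseudocount of 0.1, other filters and scalings, the block, fewer libraries, no trend and other thresholds. Coordinates are from GENCODE on GRCh37, which may not be the annotation the authors counted on. A few members of the gene lists are counted in their lists and not reported by name here.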

Additional observations from a re-analysis of the deposited data

Results flagged for a closer look

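For MNDA, HAPLN3, GFI1 and MIR4469, among the named genes, the genes with an adjusted p below 0.05 and the pair-consistent list members, the difference between TCP and control had the opposite sign, in both same-numbered pairs, to the difference between the combination and palbociclib. MIR4469 was at 6.16 and 8.48 TPM in control, 1.62 and 1.98 TPM in TCP, 5.21 and 6.45 TPM in palbociclib and 6.89 and 10.8 TPM in combination libraries, so the difference of the effects was 2.06 (SE 0.33, adjusted p = 0.213 in limma, 0.0873 with the replicate block). For GFI1 the difference of the effects was 0.14 (SE 0.12, adjusted p = 0.981 in limma), at 183 and 203 TPM in palbociclib and 196 and 221 TPM in combination libraries. For MNDA, which passed an adjusted p of 0.05 in both comparisons in opposite directions, it was 1.29 (SE 0.13, adjusted p = 0.172 in limma, 0.0873 with the block). For HAPLN3, at 0.436 and 0.336 TPM in palbociclib and 0.103 and 0.151 TPM in combination libraries, it was -0.92 (SE 0.27, adjusted p = 0.562). None of the 4 differences passed the threshold.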

How the results depend on the processing

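The number of DEG under TCP depended on most choices. Against 8 higher and 0 lower, it was 3 (3 higher) with quantile normalization and with median-ratio scaling, and 20 (15 higher, 5 lower) with the replicate block. It was 36 (29 higher, 7 lower) at an adjusted p below 0.05. It was 61 (41 higher, 20 lower) at that limit with any fold and 15 (14 higher, 1 lower) without short RNA entries, both chosen after seeing the data. With a pseudocount of 0.1, 11 passed, 1 of them lower. Without the filter on low values 3 were higher and 4 lower, and 2 of these 7 were among the 8. Without the mean-variance trend 5 were higher and 2 lower, and 4 of these 7 were among the 8. With the TCP and control libraries only it was 0, and with each library left out in turn it ranged from 0 to 1, all higher, where 835 to 2266 genes had an unadjusted p below 0.05. An arm left with 1 library was assumed to vary like the others. A mean of at least 5 TPM gave 7, all higher.

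The replicate block moved the DEG of the combination against palbociclib from 71 to 114 and left those of the difference at 0. Pair-consistent genes numbered 113 higher and 56 lower with a pseudocount of 0.1, and 37 higher and 10 lower with a mean of at least 5 TPM. Among named genes, signs turned for 6 that passed no threshold. KDM1A was at 0.0117 under quantile normalization and 0.0279 under median-ratio scaling, and GFI1 at 0.0196 under median-ratio scaling. With each control or TCP library left out in turn, the log2 difference ranged from -0.0635 to 0.0293 for KDM1A, from -0.0897 to 1.17 for CYBB, from -0.204 to 0.373 for CXCR4, from -0.156 to 0.191 for SPI1 and from -0.234 to 0.0459 for PECAM1. Of the list medians, 97 moved by less than the spread of the pairs and 16 by more, with that of the granule proteins between -0.52 and -0.86. Of the other values of named genes under these alternatives, 615 kept direction and side of the threshold, 92 lost the call and 18 gained it. Only a DEG can lose the call, so all 92 belong to the DEG of TCP. These genes lost the call under the alternatives more often than they kept it. Most of the 615 are values of named genes that were not DEG to begin with, so that number is no measure of how stable the calls were.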
